A study of Mus musculus with 22 samples.

Results

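Boundaries at the anchors of dual-function loops were followed through exit from mitosis with and without CTCF. A boundary was taken as a member when the midpoint of its 10 kb bin lay within 20 kb of the midpoint of an anchor of a dual-function loop on the same chromosome, and 1205 of the 6376 deposited boundaries met this rule. Dual-function loops are loops for which the authors found a site bound by CTCF and cohesin as well as a cis-regulatory element (CRE, marked by H3K27ac) at both anchors. Of the remaining boundaries, 1255 lay at anchors of structural loops (CTCF and cohesin at both anchors, a CRE at no more than 1) and 441 at anchors of CRE loops without a structural or dual-function anchor. The 1255 are called structural anchors only, which here means without a dual-function anchor, whether or not a CRE loop anchor was also near. The 441 are called CRE anchors only. A further 3224 had no loop anchor within 20 kb, and 251 lay only at anchors of loops outside these categories. The rule used positions and loop categories, and no strength directly. The loops were, however, called on the same Hi-C maps that give the strengths. For 704 members all dual-function loops were called only without auxin. The part of this choice in the untreated values and in the ratios was not tested. The authors had placed the boundaries at insulation minima of the untreated mid-G1 map, so the positions rest on a map that the strengths and ratios then use, and the part of this in the untreated values was not tested. The CTCF, cohesin and histone profiles behind the categories were not analysed here.

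The cells were G1E-ER4, a mouse proerythroblast line that lacks GATA1 and carries an inducible form of it, which was not induced. In every group, both copies of Ctcf were fused to an auxin-inducible degron with mCherry, and the cells expressed the auxin receptor OsTiR together with GFP, which carried a mitotic degron in the cells used for ana/telophase. All cells were held in prometaphase with 200 ng/ml nocodazole for 7 to 8.5 h and were sorted at 0 min (prometaphase), at ana/telophase, at 60 min (early-G1) and at 120 min (mid-G1) after release. Ana/telophase cells are listed at 30 min in the sample titles and at 25 min in the treatment protocol. Treated cells received auxin late in the arrest and after release, and untreated cells went through the same arrest and release without it. The engineered cells derive from a single parental line, and 18 in situ Hi-C libraries were merged by the authors into 8 maps, 3 libraries for each mid-G1 map and 2 for each of the others. The tables used here hold 1 value per boundary and merged map, and maps of single replicates were not analysed here, so no difference between treatments was tested against the spread between replicates. Errors given here are the SD of the medians of the 20 chromosomes, or 95% Wilson intervals on a share of boundaries, which cover counting error only. The number of contacts behind a single value is not given in the tables used here.

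Cohesin extrudes chromatin loops until it meets CTCF, and it is halted most readily when the CTCF recognition sequence points towards it, so loop anchors tend to carry motifs that face each other. A boundary insulates the chromatin on its left from that on its right, and CTCF sites at neighbouring domains commonly point away from each other across it. CREs can contact each other without CTCF, and active promoters are frequent at boundaries, so a site with both features has more than one element able to act there. CTCF leaves many of its sites in mitosis and domains are lost, and both return as cells enter G1.

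The sequence of the members was read first, because CTCF binds it. A 12-base string, CC followed by 3 free bases and AGGGGGC, is a strict form of the core of the CTCF recognition sequence and was searched on both strands of mm9. It was present in 148 of 1205 member bins (12.3%, 10.5 to 14.3), compared with 7.28% of all boundary bins, 9.72% of bins at structural anchors only and 7.48% at CRE anchors only. With 10 kb added on either side, 34.4% of members held it, against 20.2% of all boundaries. A looser string, CC followed by 3 free bases, AG, 2 free bases and GGC, which includes every match of the strict one, was present in 85.8% of member bins and in 68.4% of all boundary bins. A match to such a string is a description of the sequence, and occupancy at these positions was not analysed here.

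Of 6 matches of the strict string at members described by name further on, 5 are given here, each with 9 bases on either side and the string in capitals, as read on the strand given. They show which letters fill the free positions at some of the strongest and most changed members, and none of the 5 overlaps an annotated exon of a protein-coding gene. The match left out lay 6.98 kb from the midpoint of the member at Irf2bp1, in an exon and UTR of that gene. The second was the one match that met the sequence rule of the processing section, and the others were chosen after their values were seen.
Strong member on chromosome 15, in its bin, chr15:103003130-103003159, minus strand: cctgagcagCCACAAGGGGGCtctgggacc
Strengthened member at Sec14l2, in its bin, chr11:4024103-4024132, minus strand: tgcacactaCCACCAGGGGGCatcctagcc
Strong member on chromosome 15, outside its bin, chr15:103012793-103012822, minus strand: ctcaggtgtCCGGCAGGGGGCgcccgcgag
Strong member on chromosome 1, outside its bin, chr1:88277824-88277853, minus strand: cctgtagtgCCCCTAGGGGGCgctgctgct
Member with the most dual-function anchors, outside its bin, chr17:45885580-45885609, plus strand: tgccactggCCTCTAGGGGGCgctgcttgg
The 3 matches outside the bin lay 7.81, 12.8 and 10.6 kb downstream of the bin midpoint, in the order printed. All 5 share the strict string by construction, and the 3 free bases differ at each of them.

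The strand of these matches differed between the sides of the boundary, where a match near 2 boundaries counts at each. Within the member bins the strands were balanced, with 82 matches on the plus strand and 78 on the minus strand. Between 5 and 25 kb upstream (towards lower coordinates) 192 of 320 matches were on the minus strand (60.0%, 54.5 to 65.2). Between 5 and 25 kb downstream 218 of 366 were on the plus strand (59.6%, 54.5 to 64.5). The matches on both sides thus tended to point away from the boundary. Farther out, between 25 and 65 kb, 54.7% of upstream matches were on the minus strand and 58.1% of downstream matches on the plus strand, close to the 54.7% and 55.3% around all boundaries. Around all boundaries the near shares were 53.0% (49.9 to 56.1) upstream and 55.1% (52.1 to 58.2) downstream, and around boundaries with no loop anchor they were 46.5% (41.0 to 52.0) and 50.3% (44.6 to 56.1). At structural anchors only they were 56.4% (50.6 to 62.1) and 56.8% (50.7 to 62.6), with intervals that overlap those of members. At the anchors of dual-function loops themselves, the direction was the reverse relative to the loop. Of 901 upstream anchors with matches on a single strand within 15 kb of the anchor midpoint, 58.3% carried the plus strand, and of 914 downstream anchors 58.3% carried the minus strand, so that matches tended to point into the loop. Many of these anchors have no boundary. At the members themselves the split by side was near balance: within 15 kb of the bin midpoint 54.0% of those with matches on 1 strand carried the plus strand where the anchors were upstream only, and 51.3% the minus strand where they were downstream only. In the bin alone these shares were 47.8% and 47.5%. Whether the strand of a match goes with the response to auxin was not examined.

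**Figure D1:**
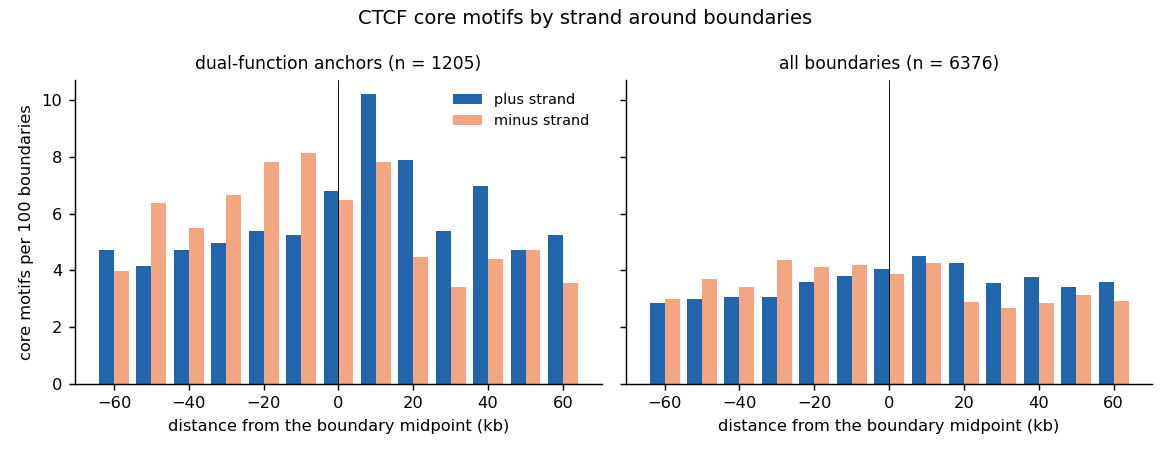
Strict core strings per 100 boundaries (vertical axis) in steps of 10 kb from the boundary midpoint (horizontal axis, kb), on the plus strand (blue) and the minus strand (orange), for the 1205 boundaries at dual-function anchors and for all 6376 boundaries, which include them. Around the members the minus strand leads at 5 of 6 upstream steps, all but -60 kb, and the plus strand at 5 of 6 downstream steps, with a tie at 50 kb. There were 98 minus and 63 plus matches at -10 kb and 95 plus and 54 minus matches at 20 kb. Around all boundaries the minus strand leads at every upstream step and the plus strand at every downstream step, so this order is not particular to members.

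The members lay in gene-rich sequence. A protein-coding transcription start was found in 360 member bins (29.9%, 27.4 to 32.5), against 14.8% of all boundary bins, 14.9% at structural anchors only (with or without a CRE anchor) and 23.1% at CRE anchors only. With 10 kb on either side the shares were 65.2% of members, 66.7% at CRE anchors only and 35.5% of all boundaries, so the lead over CRE anchors was not kept. The median distance from the bin midpoint to the nearest start was 9.8 kb for members, 10.5 kb at CRE anchors only and 26.6 kb for all boundaries. Median GC content was 46.1% in member bins and 42.6% in all boundary bins. The loop category itself requires a CRE at the anchors, and the part of these features in the strengths was not tested.

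Boundary strength was measured as ΔIS, the highest insulation score within 120 kb of the boundary minus the score at the boundary itself, so that 0 is no insulation and higher values are stronger boundaries. Without auxin, members had a median of 0.122 ± 0.0141 (SD over chromosomes) in prometaphase and of 0.561 ± 0.0445 in ana/telophase, which became 0.906 ± 0.0778 at early-G1 and 0.988 ± 0.0807 at mid-G1. With auxin, it was 0.104 ± 0.0118, 0.359 ± 0.0424, 0.607 ± 0.0739 and 0.618 ± 0.0789 at the same stages. The treated medians were thus lower at every stage, by more than either SD over chromosomes. The quartiles overlapped between treatments throughout. In mid-G1 members lay, from the lower to the upper quartile, between 0.699 and 1.3 without auxin and between 0.396 and 0.855 with it.

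Without auxin, members were stronger than boundaries in general. All boundaries, members included, had a median of 0.0937 in prometaphase and 0.499 in mid-G1. In mid-G1 the median of members lay above that of boundaries at structural anchors only (0.786 ± 0.0926) by 0.202, with 19 of 20 chromosomes in this direction. It lay above that of boundaries at CRE anchors only (0.667 ± 0.109) by 0.321, in all 20 chromosomes. A strength of 1 or more was reached in mid-G1 by 584 members (48.5%) without auxin and by 184 (15.3%) with auxin, while 19.7% and 5.99% of all boundaries reached it.

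**Figure D2:**
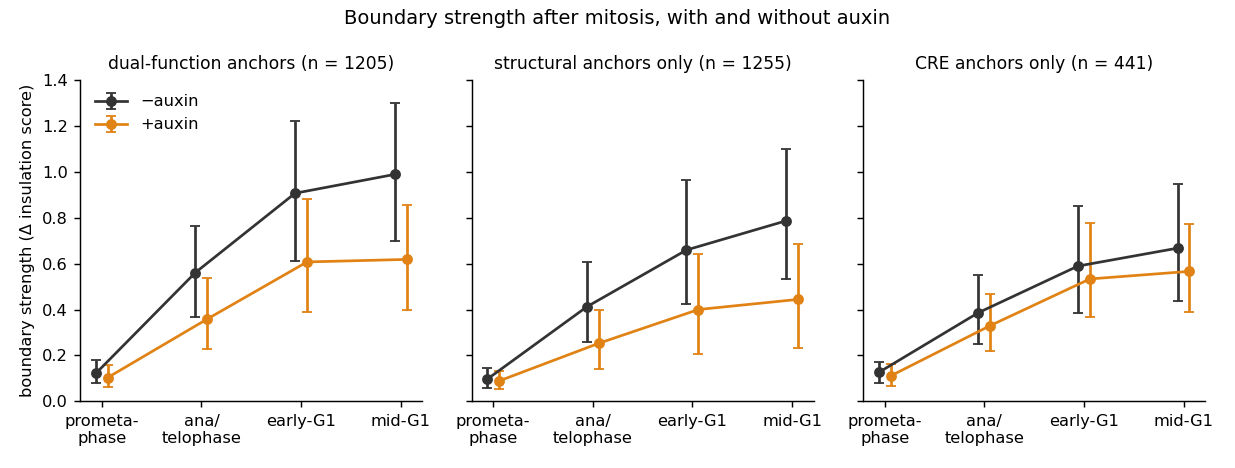
Boundary strength (ΔIS, vertical axis) by cell cycle stage (horizontal axis) without auxin (black) and with auxin (orange). Points are medians over boundaries and bars span the lower to the upper quartile; each stage and treatment is 1 merged map. In mid-G1 the medians are 0.988 and 0.618 at dual-function anchors, 0.786 and 0.444 at structural anchors only, and 0.667 and 0.566 at CRE anchors only. Structural anchors only means without a dual-function anchor, with or without a CRE anchor.

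Insulation returned at a lower level with auxin, by a like share up to ana/telophase and with less gain after early-G1. Taking the mean rise from prometaphase to mid-G1 as the full recovery in each treatment, members had recovered 50.9 ± 2.77% by ana/telophase and 91.4 ± 2.7% by early-G1 without auxin. With auxin the values were 52.8 ± 3.65% and 101 ± 3.61%. Over all boundaries the early-G1 values were 86.7 ± 2.52% without auxin and 95.7 ± 2.56% with it, so the higher treated share was not limited to members. The rise with auxin was 59.2% of the rise without it, compared with 52.5% at structural anchors only, 82.8% at CRE anchors only and 63.0% over all boundaries. From early-G1 to mid-G1, 847 members (70.3%) were still gaining strength without auxin, by a median of 0.0727 over all members, whereas 597 (49.5%) were with auxin, with a median difference of -0.00146. Over all boundaries 72.8% and 57.0% were gaining, so the untreated share of members was near that of boundaries in general. At structural anchors only, 83.9% gained over this interval without auxin and 63.2% with auxin.

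The effect of auxin was then taken for each member as log2 of strength with auxin over strength without it. At prometaphase the median member stood at -0.20 ± 0.12. It stood at -0.58 ± 0.11 by ana/telophase, at -0.56 ± 0.12 by early-G1 and at -0.68 ± 0.11 by mid-G1. Over all boundaries the medians were -0.09, -0.35, -0.34 and -0.48. The loss at members was thus present at the first post-mitotic stage and was larger than that over all boundaries at each of the 3 post-mitotic stages. In prometaphase the strengths are low in both treatments, and the ratio of 2 low values is wide, with quartiles at -0.72 and 0.26. The prometaphase median of members was -0.1 with a pseudocount of 0.1, -0.11 relative to the median of all boundaries, and -0.11 without members that also have a structural anchor.

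A member was called weaker or stronger when the 2 values differed by at least 1.5-fold. In mid-G1 693 members were weaker (57.5%, 54.7 to 60.3), beside 44.5% of all boundaries with a ratio. In ana/telophase 591 were weaker (49.0%, against 35.9% overall), and in early-G1 586 (48.6%, against 37.0%). In prometaphase 357 were weaker (29.6%), close to the 29.3% over all boundaries. With a pseudocount of 0.1 the prometaphase shares of members became 10.9% weaker and 3.73% stronger. Stronger members were few after mitosis. There were 27 in mid-G1 (2.24%), where 8.64% of all boundaries were stronger, 33 in ana/telophase (2.74%, against 11.0%) and 45 in early-G1 (3.73%, against 11.1%), while prometaphase had 177 (14.7%, against 22.4%). At structural anchors only the stronger shares were also low, with 2.07% in mid-G1, 2.23% in ana/telophase and 2.31% in early-G1. Few stronger boundaries after mitosis were thus not particular to members. Any decrease in mid-G1, however small, was seen at 1057 members (87.7%, against 75.5% of all boundaries and 91.0% at structural anchors only). When each ratio was set relative to the median of all boundaries of that stage, the mid-G1 shares became 27.0% weaker and 9.38% stronger.

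The same members were often affected from stage to stage. Weakening by at least 1.5-fold at all 3 post-mitotic stages was seen at 468 members (38.8%, 36.1 to 41.6). This share was 22.7% over all boundaries and 45.2% at structural anchors only. No such weakening at any of the 3 stages was seen at 427 members (35.4%), beside 42.3% of all boundaries and 27.3% at structural anchors only. Of the 693 members that were weaker in mid-G1, 525 (75.8%) were already weaker in ana/telophase and 544 (78.5%) in early-G1. These shares were 61.9% and 67.3% over all boundaries, and 75.9% and 81.8% at structural anchors only, close to those of members. Strengthening at all 3 stages was seen at 15 members (1.24%, against 2.15%). A lower value at all 3 stages, of any size, was seen at 959 members (79.6%, against 54.3% of all boundaries and 82.5% at structural anchors only).

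Members responded more like boundaries at structural anchors than like those at CRE anchors. In mid-G1 the median log2 change was -0.83 ± 0.14 at structural anchors only and -0.19 ± 0.12 at CRE anchors only, with -0.68 for members between them. The structural group was set without regard to CRE anchors, so the contrast is not between sites with and without them. The difference to structural anchors was 0.15 on the log2 scale, smaller than the SD of the chromosomes' differences (0.16), though 17 of 20 chromosomes had it in this direction. The difference to CRE anchors was -0.49, with an SD of 0.17 and all 20 chromosomes in this direction. Weakening by at least 1.5-fold was seen at 65.3% (62.6 to 67.8) of boundaries at structural anchors only and at 22.7% (19.0 to 26.8) of those at CRE anchors only. The groups differ in strength without auxin, so they were also compared within ranges of early-G1 strength. Between 0.6 and 1, members had a median of -0.62 (n = 411), structural anchors only -0.72 (n = 428) and CRE anchors only -0.29 (n = 139). At 1.5 or more the medians were -0.75 (n = 137), -0.76 (n = 55) and -0.47 (n = 17). Below 0.3 they were -0.38 (n = 50), -1.04 (n = 173) and 0.52 (n = 63). From 0.3 to 0.6 they were -0.65 (n = 239), -0.93 (n = 362) and -0.13 (n = 167). From 1 to 1.5 they were -0.72 (n = 368), -0.84 (n = 237) and -0.45 (n = 55). The gap in medians between members and structural anchors was therefore widest below 0.3 and nearly absent at 1.5 or more. Below 0.3 the ratios of the few members were wide, with quartiles at -1.24 and 0.59. From 1 to 1.5 the weaker shares were still apart, with 58.7% (53.6 to 63.6) of members and 72.6% (66.6 to 77.9) at structural anchors only.

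**Figure D3:**
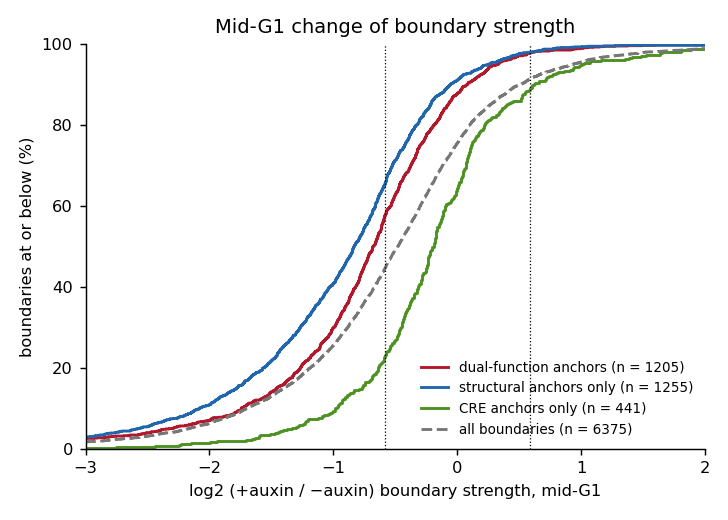
Cumulative share of boundaries (vertical axis, %) at or below a given mid-G1 log2 change with auxin (horizontal axis), for members, boundaries at structural anchors only, boundaries at CRE anchors only and all boundaries. Dotted lines mark 1.5-fold weaker and stronger; 184 of all boundaries lie outside the axis. The curve of members runs between those of structural and CRE anchors, crossing the left line at 57.5%, against 65.3% and 22.7%.

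The authors' 5 clusters of boundaries, made from the same values, describe this spread among members. Cluster 1, the group most sensitive to CTCF loss, held 206 members (17.1%) whose median in mid-G1 was 0.833 in untreated and 0.237 in treated cells. Cluster 2, of intermediate response, held 658 (54.6%), with 1.12 and 0.643. Cluster 3, with little response, held 308 (25.6%), with 0.896 and 0.848. Cluster 4, stronger with auxin, held 32 members and cluster 5, of weak boundaries, held 1. Over all boundaries the shares of clusters 1 to 5 were 20.4%, 31.9%, 27.1%, 9.25% and 11.3%. Members were thus slightly below the general share in cluster 1, near it in cluster 3, above it in cluster 2 and below it in clusters 4 and 5. At structural anchors only, clusters 1 to 4 held 30.8%, 48.4%, 18.8% and 1.99%, and cluster 5 held none. The high share of cluster 2 and low shares of clusters 4 and 5 were therefore not particular to members, whereas their cluster 1 share was lower than at structural anchors.

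Most members carried anchors of more than one kind. A structural anchor lay within 20 kb of 702 members and a CRE anchor within 20 kb of 647. Members with a structural anchor and no CRE anchor (n = 307) had a median mid-G1 change of -0.79, and 63.5% (58.0 to 68.7) were weaker by at least 1.5-fold. Members with a CRE anchor and no structural one (n = 252) had -0.52, and 42.9% (36.9 to 49.0) were weaker, near the -0.48 and 44.5% of all boundaries. Members with neither (n = 251) had -0.65 and the lowest median strength without auxin, 0.779, and those with both (n = 395) had -0.74 and 1.11. Members whose further anchors were of CRE loops thus lost the least insulation of these 4 groups, about as much as boundaries in general and more than the -0.19 of those with CRE anchors only.

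The number of dual-function anchors went with strength more than with its loss. Members with 1 such anchor (n = 561) stood at a median strength of 0.922 in untreated mid-G1 cells, those with 2 (n = 298) 0.988, those with 3 or 4 (n = 268) 1.15 and those with 5 to 10 (n = 78) 1.22. The median log2 changes were -0.64, -0.69, -0.74 and -0.70. Members with a protein-coding start in the bin (n = 360) had -0.59 and the others (n = 845) -0.72, from nearly equal medians without auxin of 0.996 and 0.982. Distance to the nearest dual-function anchor made little difference, with -0.66 when it lay in the same bin, -0.69 at 5 to 15 kb and -0.68 at 15 to 20 kb. Members lying at upstream anchors only, at downstream anchors only and at both had -0.66, -0.68 and -0.72. With and without the strict core string in the bin the medians were -0.65 and -0.68. The 297 members exactly 20 kb from their nearest dual-function anchor had -0.69 and a strength without auxin of 0.961, and the 235 boundaries just outside, at up to 30 kb, had -0.64 and 0.861.

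**Figure D4:**
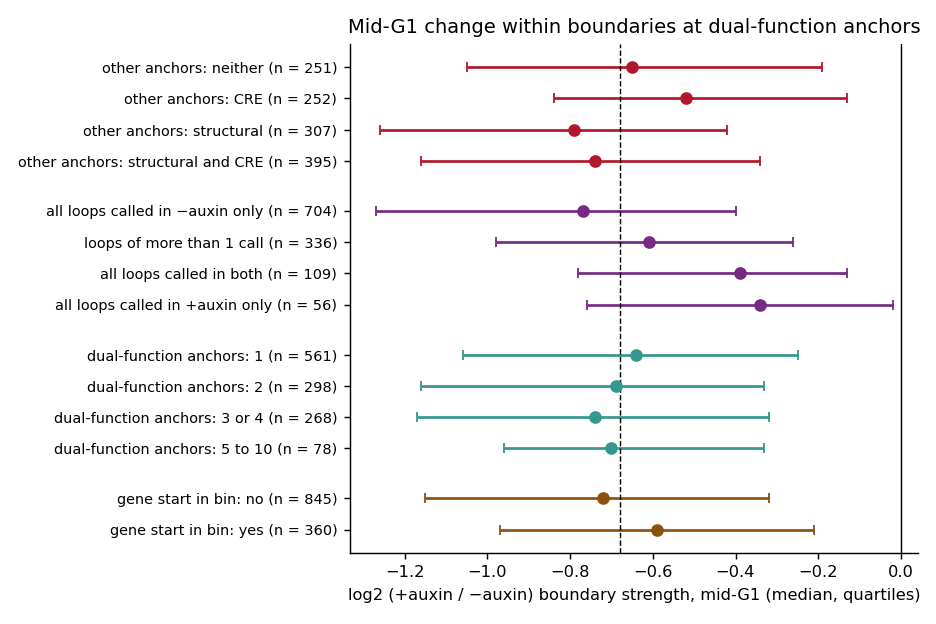
Median mid-G1 log2 change with auxin (points, horizontal axis) and quartiles (bars) of members split by the other loop anchors near them, by the treatment in which their dual-function loops were called, by their number of dual-function anchors and by a gene start in the bin. The dashed line is the median of all members, -0.68. The bars overlap within every split, and the smallest losses are at members whose loops were called in both treatments (-0.39) or with auxin only (-0.34).

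Loops and boundaries at the same place weakened to a related extent. Of 3370 dual-function loops, 2076 (61.6%) had a boundary at 1 anchor or more and 453 (13.4%) had one at each anchor. For each member the log2 change of loop strength, the ratio of observed to locally expected contacts, was averaged over its dual-function loops. Across the 1205 members this correlated with the change of boundary strength in mid-G1 with a Pearson r of 0.29 and a Spearman rho of 0.33, and r was positive in each of the 20 chromosomes, from 0.08 to 0.49. In ana/telophase r was 0.27 and in early-G1 0.29, whereas in prometaphase it was 0.02. Both measures come from the same pairs of maps, and members that share a loop are not independent, so these are descriptions across sites. In the 219 members whose loops had a mean log2 change below -1, 78.1% (72.1 to 83.1) of boundaries were weaker by at least 1.5-fold. This share was 65.4% (n = 445) for loop changes from -1 to -0.5, 45.4% (n = 401) from -0.5 to 0, and 35.0% (27.6 to 43.2, n = 140) where the mean loop change was 0 or above. The last share lies below the 44.5% of all boundaries and near the 35.3% of boundaries with no loop anchor, and single loops within a mean may have weakened.

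**Figure D5:**
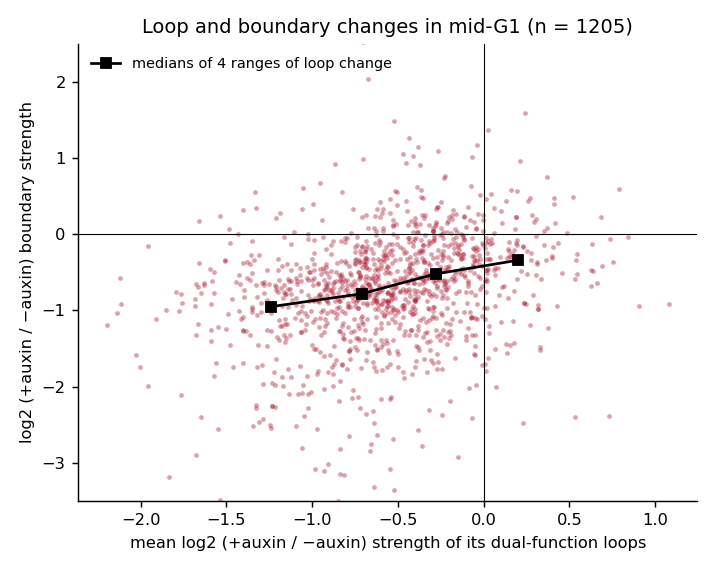
Mid-G1 log2 change of boundary strength (vertical axis) against the mean log2 change of strength of the dual-function loops anchored there (horizontal axis), 1 point per member. Black squares join the medians of 4 ranges of loop change, which go from -0.95 where loops lost most to -0.34 where the mean loop change was 0 or above; 23 points lie outside the vertical axis.

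The treatment in which loops were called gave a like ordering. Where all dual-function loops of a member were called only without auxin (n = 704), the median boundary change was -0.77 and 64.8% (61.2 to 68.2) were weaker. Where all were called in both treatments (n = 109) it was -0.39 and 40.4% (31.6 to 49.8), and where all were called only with auxin (n = 56) it was -0.34 and 32.1% (21.4 to 45.2). The intervals of the last 2 shares hold the 44.5% of all boundaries. The calls were made on the same maps as the strengths. For the 453 loops with a boundary at each anchor, both boundaries were weaker in 187 (41.3%), 1 of them in another 187 (41.3%) and neither in 79 (17.4%), where 57.5% of members and 44.5% of all boundaries were weaker singly. The changes of the paired boundaries were barely related, with a Pearson r of 0.00 and a Spearman rho of 0.11, and their median absolute difference was 0.52 on the log2 scale. The boundary at one end of a dual-function loop therefore said little about the size of the loss at the other.

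Single members are given next, with coordinates in mm9. The strongest in mid-G1 without auxin held the start of Hoxc10, a homeobox gene of the HoxC group, at chr15:102790001-102800000. Its strength was 0.46, 2.22, 3.08 and 2.89 from prometaphase to mid-G1 without auxin, and 0.509, 1.49, 2.15 and 1.95 with auxin. It was lower with auxin at the 3 post-mitotic stages and kept a treated value far above the median of untreated members.

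The next in strength held the histone genes Hist2h2bb and Hist2h3b, which encode core histones H2B and H3 (chr3:96070001-96080000). Its values were 0.472, 1.69, 2.38 and 2.75 without auxin and 0.371, 1.36, 1.84 and 2.04 with auxin, below untreated at all 4 stages. The fifth strongest lay on the same chromosome, at chr3:96290001-96300000, with 2.5 and 1.84 in mid-G1. This chromosome carries a translocation in the line.

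The other 2 bins among the strongest overlap no protein-coding gene, and their motif matches are printed above. At chr15:103000001-103010000 the values were 0.239, 1.78, 2.66 and 2.57 without auxin and 0.322, 0.981, 1.5 and 1.41 with auxin. At chr1:88260001-88270000 they were 0.159, 1.37, 2.44 and 2.57, and 0.0925, 0.706, 1.14 and 1.3. These 2 lost more than the other 3 of the list, with mid-G1 log2 changes of -0.87 and -0.98 against -0.57 (Hoxc10) and -0.44 for both on chromosome 3.

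Some members lost nearly all insulation. The 5 with the largest mid-G1 loss were taken from the 1035 members that reached 0.3 in either treatment in mid-G1 and changed in the same direction at all 3 post-mitotic stages, of which 950 were lower and 85 higher with auxin. At chr13:96310001-96320000 the strength was 0.101, 0.661, 1.16 and 1.16 without auxin and 0.00929, 0.0863, 0.0983 and 0.0243 with auxin, a log2 change of -5.58 in mid-G1. With auxin this site stayed below the untreated prometaphase median of members at every stage.

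A bin overlapping Myo5c, which encodes an unconventional myosin, had 0.0554, 0.329, 0.582 and 0.84 without auxin and 0.0309, 0.0202, 0.0131 and 0.028 with auxin (chr9:75120001-75130000, log2 -4.90). A bin over Cdh16, a cadherin gene, and Pdp2, a mitochondrial phosphatase gene, had 0.398 without and 0.014 with auxin in mid-G1 (chr8:107120001-107130000, log2 -4.83). Bins at chr8:129020001-129030000 and chr2:75620001-75630000, which overlap no protein-coding gene, had 0.532 and 1 without auxin and 0.0201 and 0.0458 with it. All dual-function loops of these 5 members were called only without auxin, as were those of 58.4% of all members. Since the treated values are near 0, the ratios vary strongly with small errors.

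The most strengthened members are described next. They were ranked by the ratio, so low values without auxin follow from the choice. The bin with the start of Scrib, a cell polarity gene, had 0.0531, 0.0292, 0.0641 and 0.00917 without auxin and 0.0475, 0.178, 0.408 and 0.386 with it (chr15:75890001-75900000). Its mid-G1 log2 change of 5.40 divides by the lowest of all untreated mid-G1 values of members. A bin overlapping Sec14l2, a lipid-transfer protein gene, had 0.0694, 0.153, 0.146 and 0.0863, and with auxin 0.174, 0.339, 0.442 and 0.356 (chr11:4020001-4030000). It was higher with auxin already in prometaphase.

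The others of this list were at 9230112E08Rik and Arfgap1 (chr2:180710001-180720000, 0.132 to 0.399 in mid-G1), at Irf2bp1 and Mypop (chr7:19580001-19590000, 0.284 to 0.8) and at Lpcat3 (chr6:124630001-124640000, 0.308 to 0.799). Arfgap1 encodes a GTPase-activating protein of the Golgi, Irf2bp1 and Mypop transcriptional regulators, and Lpcat3 an enzyme that remodels phospholipids. With auxin the mid-G1 strengths of the 5 lay between 0.356 and 0.8, on both sides of the treated median of 0.618, and all 5 belonged to cluster 4.

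Other strong members had nearly the same mid-G1 strength with and without auxin, by which they were chosen. Among the 584 with a strength of 1 or more, the 5 with the smallest mid-G1 change had log2 changes between -0.01 and 0.02. The bin with the start of Tial1, which encodes an RNA-binding protein, had 0.0887, 0.595, 1.08 and 1.11 without auxin and 0.144, 0.727, 1.251 and 1.1 with it (chr7:135600001-135610000). A bin overlapping Fech, which encodes the last enzyme of haem synthesis, had 0.11, 0.793 and 1.31 in prometaphase, ana/telophase and mid-G1 and, with auxin, 0.0583, 0.763 and 1.3. In prometaphase, where values are low, the log2 changes were 0.70 at Tial1 and -0.92 at Fech. In ana/telophase and early-G1 they were 0.29 and 0.21 at Tial1, and -0.05 and 0.03 at Fech. Larger changes before mid-G1 follow in part from a choice by the smallest mid-G1 change.

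The other 3 of this list were a bin overlapping Hmgxb3 (1.1 and 1.11 in mid-G1), the bin at chr8:86820001-86830000 (1.01 in both) and that at chr10:42010001-42020000 (1.08 in both). All 5 belonged to cluster 3 and each had a single dual-function anchor. For 2 of them the loop was called only without auxin, for those at Fech and Hmgxb3 only with auxin, and for that at Tial1 in both. A nearly unaltered mid-G1 strength thus did not require that the loop be called in both treatments, and a loop below the calling threshold may still be present.

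The member with the most dual-function anchors, 10, lay at chr17:45870001-45880000 in a bin free of protein-coding genes. Its strength was 0.101, 0.734, 1.19 and 1.13 without auxin and 0.0631, 0.37, 0.627 and 0.557 with auxin, a mid-G1 log2 change of -1.02. It also had structural and CRE anchors within 20 kb.

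Of 36 erythroid and haematopoietic genes listed, 35 had an annotated start, and 6 had it within 20 kb of a member midpoint. Myc, a growth regulator, had a member with 0.336, 1.15, 1.74 and 1.6 without auxin and 0.232, 0.946, 1.44 and 1.37 with auxin (chr15:61800001-61810000). Ldb1, whose product joins erythroid enhancers to promoters, had 0.123, 0.662, 1.251 and 1.57, and with auxin 0.116, 0.275, 0.533 and 0.659 (chr19:46100001-46110000). The first kept most of its mid-G1 strength (log2 -0.23), and the second, at 0.42 times its untreated value, lost the most of the 6.

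Urod, an enzyme gene of haem synthesis, had a member at 1.45 without and 0.874 with auxin in mid-G1 (chr4:116670001-116680000, log2 -0.73). At the haematopoietic regulators Runx1 (chr16:92680001-92690000) and Gata2 (chr6:88150001-88160000) the mid-G1 values were 1.07 and 1.03, and 0.99 and 1.01. Myb, a factor of immature progenitors, had 0.892 and 0.715 (log2 -0.32). Of these 6 members 2 were weaker by at least 1.5-fold and none was stronger, where 44.5% and 8.64% of all boundaries were, and the median was -0.27, beside -0.68 over all members. With 6 sites, nothing is read from these counts. The transcription of these genes was not analysed here.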

How the data were processed

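In situ Hi-C libraries of 8 conditions (18 libraries) were grouped by the sample labels, and 4 libraries with triptolide were not used. The authors aligned reads to mm9 with Bowtie2 within HiC-Pro, merged replicates, balanced the maps with juicer_tools, called boundaries with rGMAP and moved them to local insulation minima of untreated mid-G1 cells. Boundary strength (ΔIS) was deposited as a signal of 0 or above. Loop strength was deposited as the ratio between observed contacts and a local expectation, over 9 pixels, from a modified HICCUPS. Loop categories and clusters are labels given by the authors.

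From these, log2 ratios were computed without a pseudocount; no member had a value of 0. A call was a difference of at least 1.5-fold. The tables used hold values of merged replicates only, so no test was run, and maps of single replicates were not analysed here. Gene positions are those of protein-coding genes in GENCODE vM1, and sequence is NCBIM37, whose chromosome lengths hold all coordinates. Members named are the 5 strongest, the 5 largest losses and gains, the 5 smallest changes, the one with most anchors, and the strongest at listed erythroid genes (Myb was added after its values were seen). Sequences were planned for losses, gains and smallest changes holding the strict string, at most 2 per list and none from chromosome 18. Members and lists were chosen with earlier results of these data known. The scripts were tested on simulated data and run in Python 3.11.15 with numpy 2.4.6, pandas 2.3.3 and scipy 1.17.1, and figures were drawn with matplotlib 3.10.9. Alternatives covered the window, loop selection, clusters, chromosome 3, pseudocount, a strength filter, centring, the fold and the motif; 3 more were added after seeing the data: strength ranges, motifs to 65 kb, and leaving out members with a structural anchor.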

Additional observations from a re-analysis of the deposited data

How the results depend on the processing

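No paired analysis was possible because the tables used here hold 1 merged value per condition, and maps of single replicates were not analysed here. No median log2 change of members, nor their mid-G1 log2 difference to structural anchors only, changed sign under any alternative run for it. The differences to CRE anchors, the differences in strength and the medians of sub-groups of members were not run under alternatives. Windows of 10 kb (820 members) and 30 kb (1440), loops with a 10 kb summit only, loops called without auxin, and leaving out cluster 5 or chromosome 3 moved no strength, log2 change, recovery or share of weaker or stronger members by more than its error. Nor did a mid-G1 strength of 0.2 or more, run for the log2 changes and these shares. Centring on all boundaries gave median log2 changes of -0.23, -0.22 and -0.20 at the 3 post-mitotic stages in order, and without members that have a structural anchor too (n = 503) the early-G1 median was -0.42. The shares moved with the threshold and the scale. From prometaphase to mid-G1, weaker members were 43.3, 68.6, 66.4 and 73.6% past a log2 difference of 0.32 and 16.5, 23.8, 25.7 and 29.9% at 2-fold. Stronger members were 22.7, 5.64, 7.30 and 5.06% past 0.32 and 7.39, 1.33, 1.66 and 1.08% at 2-fold. With a pseudocount of 0.1, weaker members were 10.9, 39.8, 43.2 and 50.5%, and stronger ones 3.73, 1.74 and 2.57% in the first 3 stages. After centring, weaker members were 26.1, 27.8, 29.1 and 27.0% and stronger ones 17.4, 6.80, 8.96 and 9.38%. The prometaphase shares rest on values near 0. The core string was held by 85.8% of bins in its looser form and by 34.4% with 10 kb on either side, and a gene start by 65.2% with 10 kb on either side. Precision of single sites is unknown, since the contacts behind each value are not in the tables used.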
